A study of Rattus norvegicus with 24 samples.

Results

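Described here are 10 of the 13811 named genes on the arrays, members of the early endosome and Rab traffic machinery, Eea1, Wdfy1, Gapvd1, Rab14, Rab5a, Rab7a, Rab11a, Vps35, Hgs and Ap1s1. Every probe set of the Affymetrix arrays RAE230A and RAE230B whose only gene symbol is one of these names was taken, which gave 22 of 31142 probe sets. Of the 22, 19 had a mean signal above the low-signal filter (7.52 on RAE230A and 6.85 on RAE230B) and were tested among 21799. The set was chosen by the strain differences in signal of Eea1, Wdfy1, Gapvd1 and Rab14 in these same pools, and Ap1s1 is treated in the same way. Values of these 5 genes are therefore a description. Whether limma called their probe sets, and how often a call was kept under alternatives, is stated but supports nothing. The same values chose them. Among the members, p-values are given only for Rab5a, Rab7a, Rab11a, Vps35 and Hgs.

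Left kidneys of male rats aged 67 to 69 days were compared among the congenic substrains ET3x2 and ET3x1 and the inbred Dahl salt-sensitive strain SS/jr, called S. The congenic rats carry alleles of a salt-resistant strain on the S background, so that all 3 strains share most of the S genome. From general knowledge of these strains the exchanged segment lies around the endothelin 3 gene (Edn3) on chromosome 3, and its borders were not analysed here. All rats ate 0.4% NaCl until 39 to 41 days of age and 2% NaCl for the next 28 days, so that there is no group without added salt. Equal amounts of RNA from 3 rats per pool (ET3x2 pools I, J, K and L, and ET3x1 pools E, F, G and H) or 2 rats per pool (S pools A, B, C and D) made 4 pools per strain, 12 pools from 32 rats in all. Each pool was read once on each array, giving 24 arrays, and a pool averages its rats.

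Endocytosed material first reaches early endosomes, whose identity is set by the small GTPase Rab5 and by the lipid phosphatidylinositol 3-phosphate (PI3P). Proteins with a FYVE domain bind this lipid, and from the early endosome cargo is recycled, sent to the trans-Golgi network, or passed to late endosomes and lysosomes, each step under its own Rab GTPase and coat. In the kidney this traffic is heaviest in the proximal tubule, where filtered proteins are taken up through megalin and cubilin.

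The members lie on several chromosomes of the RefSeq assembly GRCr8: Eea1 on 7, Wdfy1 and Rab5a on 9, Gapvd1 and Rab14 on 3, Rab7a on 4, Rab11a on 8, Vps35 on 19, Hgs on 10 and Ap1s1 on 12. On chromosome 3 the order of protein-coding genes puts 11 between Gapvd1 and Rab14, 1452 between Gapvd1 and Edn3 and 1440 between Rab14 and Edn3. The platform's table gives a RefSeq mRNA for 5 of the 22 probe sets, another GenBank entry for 14 and none for 3. Where along the transcript each probe set lies was not analysed here.

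The promoters of Eea1, Wdfy1 and Gapvd1 are shown because a probe set of each was higher in ET3x1 than in S. They are the RefSeq windows of GRCr8, from 250 bases before to 50 bases after the start of the gene, in the Brown Norway reference and not in S or congenic rats. Capitals mark the GC box (GGGCGG or CCGCCC) and the CCAAT box (CCAAT or ATTGG), searched on both strands. The windows are chr7:32491308-32491607 on the + strand for Eea1, chr9:88541137-88541436 on the - strand for Wdfy1 and chr3:38439341-38439640 on the - strand for Gapvd1.
Eea1: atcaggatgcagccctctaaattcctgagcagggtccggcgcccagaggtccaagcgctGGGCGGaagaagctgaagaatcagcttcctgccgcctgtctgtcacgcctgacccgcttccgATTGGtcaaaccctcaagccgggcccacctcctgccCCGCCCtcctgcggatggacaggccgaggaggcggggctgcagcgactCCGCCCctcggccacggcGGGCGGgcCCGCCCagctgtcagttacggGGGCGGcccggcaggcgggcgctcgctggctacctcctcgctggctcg
Wdfy1: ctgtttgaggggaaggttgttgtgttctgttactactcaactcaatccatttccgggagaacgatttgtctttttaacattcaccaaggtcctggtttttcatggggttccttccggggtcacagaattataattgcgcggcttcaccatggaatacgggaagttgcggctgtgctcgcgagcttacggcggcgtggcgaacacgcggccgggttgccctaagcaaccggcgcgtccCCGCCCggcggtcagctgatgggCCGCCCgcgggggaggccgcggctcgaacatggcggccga
Gapvd1: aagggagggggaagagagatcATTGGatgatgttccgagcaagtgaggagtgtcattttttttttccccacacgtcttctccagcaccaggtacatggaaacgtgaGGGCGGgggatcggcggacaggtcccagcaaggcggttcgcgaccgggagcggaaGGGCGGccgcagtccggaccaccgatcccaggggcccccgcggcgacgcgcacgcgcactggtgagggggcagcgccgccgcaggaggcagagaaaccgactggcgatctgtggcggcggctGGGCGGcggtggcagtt
The GC box occurs 6 times in the Eea1 window, 2 times in that of Wdfy1 and 3 times in that of Gapvd1, and 33.1% of 33469 rat promoters of this length hold at least 1. A CCAAT box occurs 1 time in Eea1 and 1 time in Gapvd1 and has no match in Wdfy1, against 37.5% of all promoters. Neither the E-box CACGTG (6.42% of promoters) nor TATAAA (14.2%, both strands) has a match in these 3 windows. These matches describe the letters of the reference and are not shown to be sites of binding.

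Over all probe sets, 94 were higher and 2 lower in ET3x1 against S, 14 higher and 61 lower in ET3x2 against S, and 21 higher and 302 lower in ET3x2 against ET3x1 (limma, adjusted p under 0.05). No 2 of the 12 pools had identical values on an array. Pool medians were 8.50 to 8.61 for RAE230A, and for RAE230B 7.55 to 7.62. ET3x2 pool J and S pools A and B had the highest actin 5' minus 3' control signal on both arrays, at -1.14, -1.27 and -1.27 on RAE230A against -2.10 to -1.66 in the other 9 pools. This control difference falls when labelled cRNA holds less of the 5' part of transcripts. Marker lists of proximal tubule, thick limb, collecting duct, intercalated and endothelial cells lay above the filter with every gene, distal tubule and podocyte lists with 2 of 3 measured genes each and leukocytes with 3 of 5, while adrenal, fat and muscle lists did so with 2 of 4, 2 of 4 and 1 of 4 measured genes. The log2 of the summed signal of 3 plasma cell markers was 10.79 to 11.07 in ET3x2 and 10.83 to 11.35 in ET3x1, against 10.22 to 10.41 in S. The part of plasma cells in the differences from S given below was not tested. In whole kidney RNA, fewer cells of a type and less RNA per cell cannot be told apart.

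Among the members, 3 of 19 tested probe sets passed in ET3x1 against S, all higher (Eea1 1394985_at, Wdfy1 1376256_at and Gapvd1 1381021_at), where 0.44% of all probe sets passed, 0.431% were higher and 0.00917% lower. In ET3x2 against S 0 of 19 passed with limma, 1 of 19 had an unadjusted p under 0.05 (10.9% over all), and the share over all probe sets was 0.344% (0.0642% higher and 0.28% lower). In ET3x2 against ET3x1 4 were lower (those 3 and Rab14 1367884_at) and 1 was higher (Ap1s1 1371858_at), against 1.39% lower and 0.0963% higher over all (1.48% in both directions). Any 2 of the 3 contrasts share the 4 pools of a strain. Since these genes were chosen for these contrasts, nothing is read from the counts. Of the 7 tested probe sets of the 5 genes not chosen for a shift, 0 passed with limma in each contrast and 0 had an unadjusted p under 0.05. Over all probe sets 11.8%, 10.9% and 13.1% had one in the 3 contrasts, in the order above. At these shares 7 probe sets are too few for 0 to be read as a result. All called member probe sets belong to genes chosen for a shift or, for Ap1s1, treated as such.

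The median log2 difference over the 19 probe sets was 0.04 for ET3x1 against S, -0.04 for ET3x2 against S, and for ET3x2 against ET3x1 -0.05. Over all probe sets the medians were -0.0047, 0.025 and 0.032. Of the 22 probe sets, 4 had their highest mean in ET3x2, 11 in ET3x1 and 7 in S. The lowest mean lay in ET3x2 for 7, in ET3x1 for 9 and in S for 6. These counts include genes chosen for a shift and have no share over all probe sets beside them, so nothing is read from them. The plot of strain differences shows called and uncalled probe sets side by side within Eea1, Wdfy1, Gapvd1, Rab14 and Ap1s1.

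**Figure D1:**
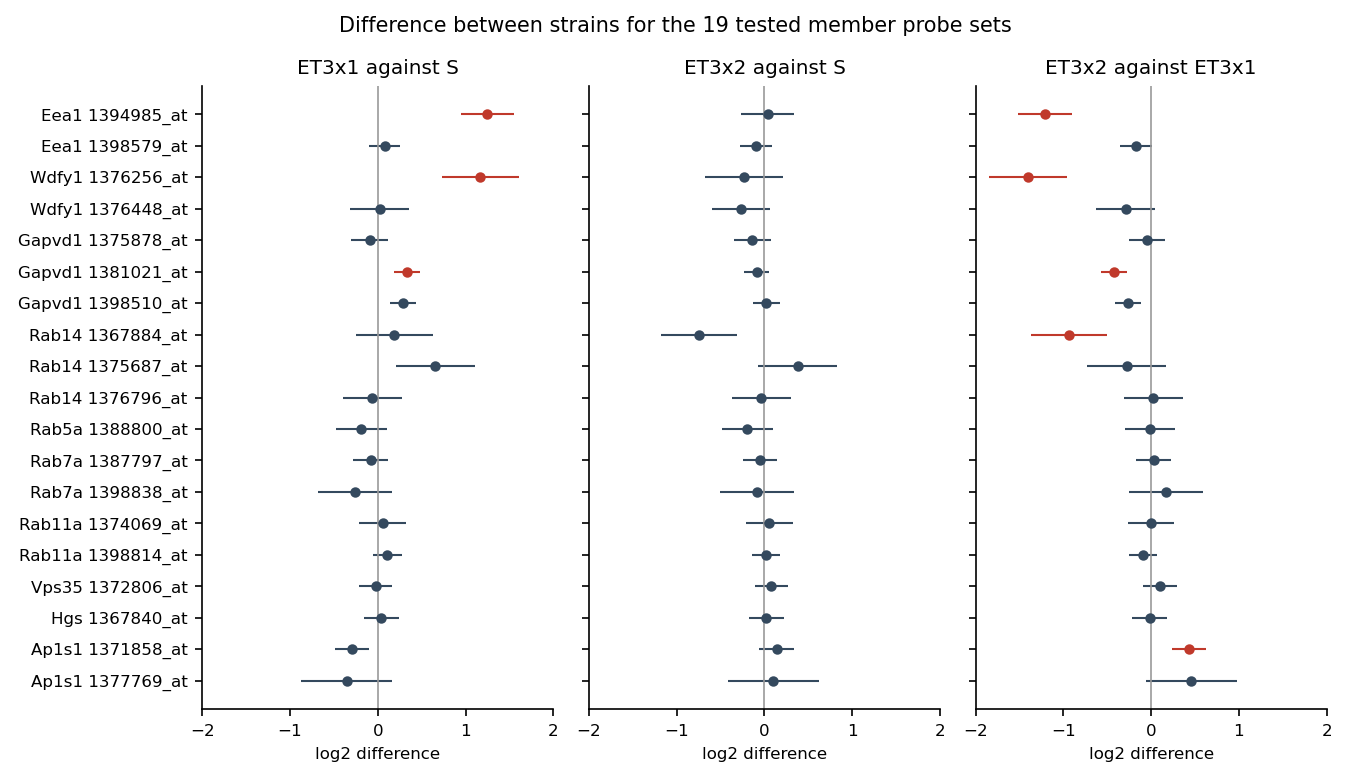
Log2 difference between strains (x axis) for each of the 19 tested member probe sets (rows), with 1 panel per contrast (ET3x1 against S on the left, then ET3x2 against S, then ET3x2 against ET3x1). Points are limma estimates, bars are 95% confidence intervals, and red marks an adjusted p under 0.05, which 3, 0 and 5 of the 19 reached. Red probe sets all belong to genes chosen for a shift or, for Ap1s1, treated as such, so that red supports nothing. Wdfy1 1376256_at lies at 1.17, -0.24 and -1.41, and the plotted size for Eea1 1394985_at rests on pools under the filter level.

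Eea1 is the long coiled-coil tether that binds PI3P through its FYVE domain and Rab5 and brings early endosomes together for fusion. Eea1 1394985_at had 6.65, 6.60, 6.46 and 6.57 in ET3x2 pools I to L, 8.01, 7.54, 8.06 and 7.50 in ET3x1 pools E to H, and 6.78, 6.69, 6.41 and 6.24 in S pools A to D (deposited log2 signal). Each ET3x1 pool lay above every pool of the other strains, which overlapped with each other. The mean was 6.57 ± 0.081 in ET3x2, 7.78 ± 0.30 in ET3x1 and 6.53 ± 0.25 in S (SD, n = 4 pools each). All ET3x2 and S pools lay under the filter level of 6.85 on this array, and the probe set passed the filter through its ET3x1 pools. Neither a fold nor a log2 difference is given, since an unknown background would enter both.

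A second Eea1 probe set, 1398579_at on the same array, did not follow the first. Its signal was 9.31, 9.34, 9.41 and 9.32 in ET3x2, 9.63, 9.59, 9.36 and 9.50 in ET3x1, and 9.66, 9.28, 9.40 and 9.43 in S. All 3 strains overlapped, and the S pools spanned the whole range from lowest to highest. Its log2 difference was 0.08 (SE 0.083) in ET3x1 against S, -0.09 (SE 0.083) in ET3x2 against S and -0.17 in ET3x2 against ET3x1.

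Wdfy1 is a protein of early endosomes with WD40 repeats and a FYVE domain, and it too binds PI3P. Wdfy1 1376256_at had 8.82, 8.78, 8.62 and 8.73 in ET3x2, 10.15, 9.86, 10.49 and 10.07 in ET3x1, and 9.67, 9.17, 8.54 and 8.52 in S. The lowest ET3x1 pool lay above the highest S pool, A, while S pools A and B lay above C and D by more than the whole ET3x2 range. The log2 difference was 1.17 (SE 0.21, 2.25-fold) in ET3x1 against S, -0.24 (SE 0.21) in ET3x2 against S and -1.41 (SE 0.21, 0.378-fold) in ET3x2 against ET3x1. Pools A and B also had a high actin 5' minus 3' signal, but pool J, with the highest, lay at 8.78, within the other ET3x2 pools. The part of this control signal in the Wdfy1 values was not tested. Without pools A, B and J the ET3x1 against S difference was 1.61. It then rests on S pools C and D alone, the 2 lowest of S. The call against S was kept in 10 of 21 alternatives: it was lost without any of the 10 pools B, C, D, E, F, G, H, I, K and L and with only the 2 strains fitted, where the difference was 1.02 to 1.26.

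For the other Wdfy1 probe set, 1376448_at, the strains overlapped. It had 8.76, 8.77, 8.71 and 9.23 in ET3x2, 9.34, 9.35, 9.04 and 8.91 in ET3x1, and 9.42, 9.28, 9.16 and 8.70 in S. ET3x2 pool L stood above the other ET3x2 pools, and S pool D was the lowest of the 12. The log2 difference was 0.02 (SE 0.16) in ET3x1 against S, -0.27 (SE 0.16) in ET3x2 against S and -0.29 in ET3x2 against ET3x1. The gap between both Wdfy1 probe sets was 1.15 in ET3x1 against S and 1.11 in ET3x2 against ET3x1, but 0.03 in ET3x2 against S. Genes with 2 or more tested probe sets on one array, counted for each array apart, numbered 1957. Over these 1957, the median of this gap in ET3x1 against S was 0.15 and its 95th percentile 0.55.

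Gapvd1 is an exchange factor that loads Rab5 with GTP, and it was read by 3 probe sets. Gapvd1 1381021_at had 8.52, 8.37, 8.31 and 8.27 in ET3x2, 8.79, 8.86, 8.72 and 8.79 in ET3x1, and 8.52, 8.55, 8.38 and 8.37 in S. All ET3x1 pools lay above all others, within a span of 0.14. The log2 difference was 0.33 (SE 0.068, 1.26-fold) in ET3x1 against S, -0.09 (SE 0.068) in ET3x2 against S and -0.42 (SE 0.068, 0.746-fold) in ET3x2 against ET3x1. The call against S was kept in 11 of 21 alternatives. It was lost without any of the 9 pools A, C, D, E, F, H, J, K and L and with only the 2 strains fitted, with differences of 0.30 to 0.36.

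Gapvd1 1398510_at, on the same array, moved the same way and was not called. Its pools had 8.53, 8.31, 8.40 and 8.55 in ET3x2, 8.69, 8.74, 8.58 and 8.84 in ET3x1, and 8.45, 8.38, 8.38 and 8.50 in S. ET3x1 again lay above both other strains without overlap, with a log2 difference of 0.29 (SE 0.070) against S. ET3x2 differed from ET3x1 by -0.26 (SE 0.070) and from S by 0.02. The pools of 2 strains did not overlap in 6.4% of all probe sets for ET3x1 against S, 5.95% for ET3x2 against S and 9.15% for ET3x2 against ET3x1. Gapvd1 1375878_at, on RAE230A, ranged from 9.08 to 9.39 in ET3x2, from 9.16 to 9.41 in ET3x1 and from 9.24 to 9.64 in S. Here the strains overlapped, and the ET3x1 against S difference was -0.09 (log2, SE 0.098).

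Rab14 works between early endosomes, the trans-Golgi network and the cell surface, and it has 5 probe sets. Rab14 1367884_at had 10.05, 9.997, 9.66 and 9.65 in ET3x2, 10.89, 10.58, 11.36 and 10.27 in ET3x1, and 10.43, 10.39, 11.08 and 10.45 in S. Unlike Eea1 and Wdfy1, here the ET3x2 pools lay apart, all below the 8 others, while ET3x1 and S overlapped. On the log2 scale the difference was -0.75 (SE 0.20, 0.596-fold) in ET3x2 against S, -0.94 (SE 0.20, 0.523-fold) in ET3x2 against ET3x1 and 0.19 (SE 0.20) in ET3x1 against S. Of the 3 contrasts ET3x2 against ET3x1 was called, and the call was kept in 12 of 21 alternatives. It was lost without any of the 8 pools A, B, E, G, I, J, K and L and without A, B and J together, with differences of -1.01 to -0.74.

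A second Rab14 probe set on RAE230A, 1375687_at, moved in another way. It had 11.78, 11.34, 11.68 and 12.43 in ET3x2, 12.09, 11.75, 12.60 and 11.90 in ET3x1, and 11.25, 11.24, 11.56 and 11.67 in S. ET3x1 lay above S without overlap, and ET3x2 spanned both. Its difference was 0.66 on the log2 scale (SE 0.21) in ET3x1 against S, 0.38 (SE 0.21) in ET3x2 against S and -0.28 in ET3x2 against ET3x1, and none was called. Pools A, B and J were the 3 lowest of the 12 here. In ET3x2 against S this probe set and 1367884_at went opposite ways, 1.12 apart, where the 95th percentile over the 1957 genes was 0.39.

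The other Rab14 probe sets showed no separation. Rab14 1376796_at ranged from 9.04 to 9.37 in ET3x2, from 8.99 to 9.53 in ET3x1 and from 8.76 to 9.54 in S, with a log2 difference of -0.06 in ET3x1 against S. In ET3x2 it differed by -0.04 from S and by 0.03 from ET3x1. Rab14 1385314_at and 1397463_at lay under the filter and were not tested. Their pools ranged from 6.58 to 7.48 and from 4.28 to 4.66 over all strains.

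**Figure D2:**
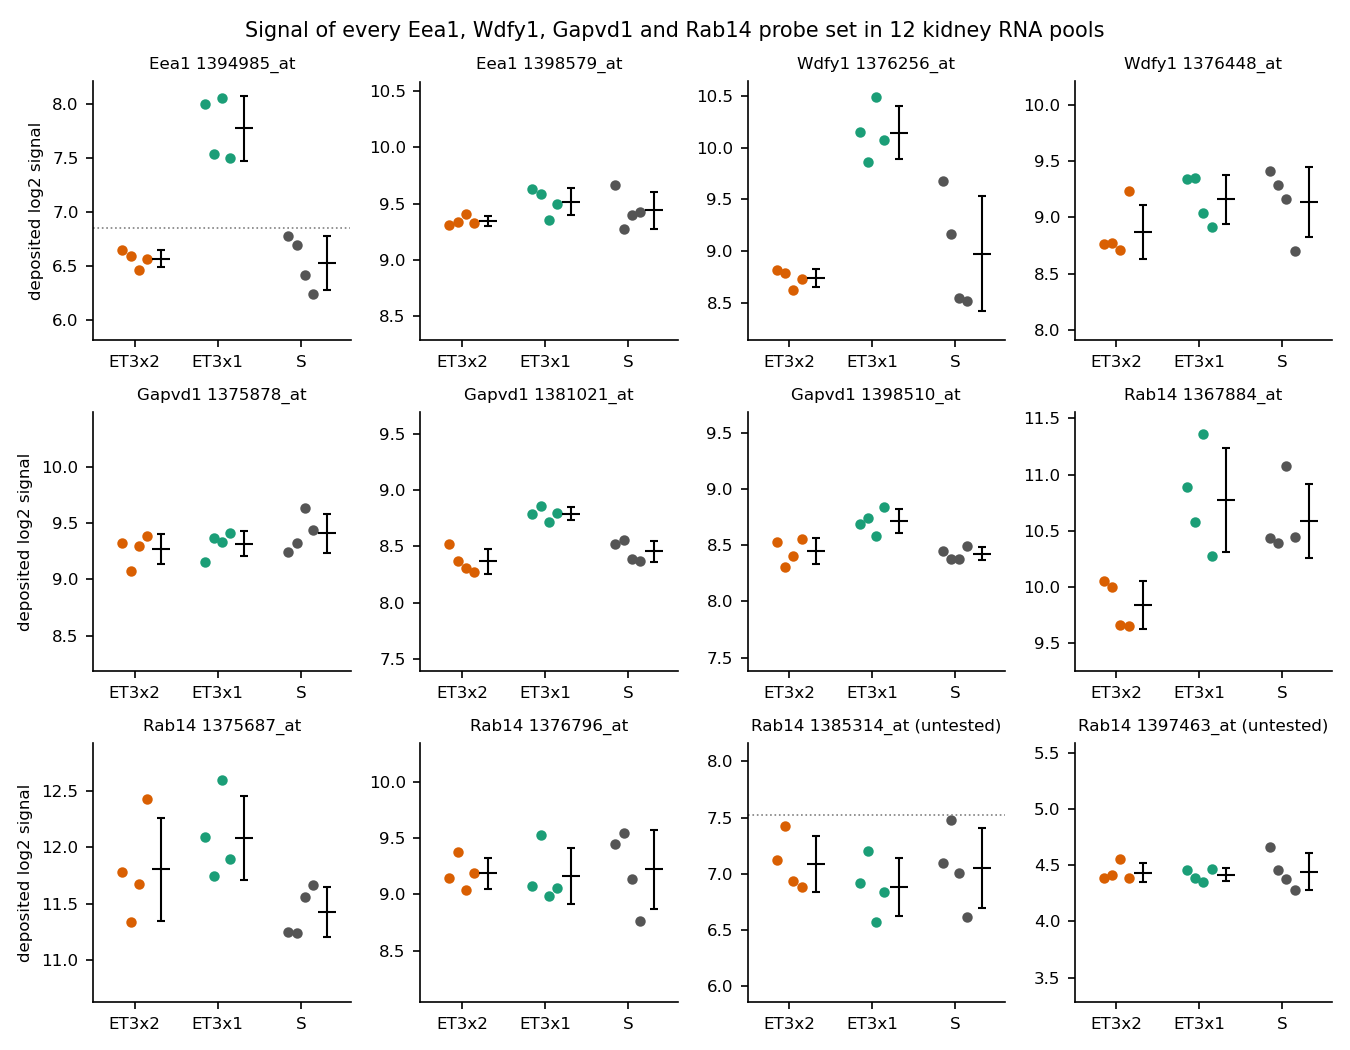
Deposited log2 signal (y axis, a separate range in each panel) of the 12 probe sets of Eea1, Wdfy1, Gapvd1 and Rab14 in the 4 pools of ET3x2, ET3x1 and S. Points are pools, the bar is the mean with SD, and the dotted line is the filter level where it falls in view. The ET3x1 pools lie above all others for Eea1 1394985_at (7.50 to 8.06), Wdfy1 1376256_at and 2 Gapvd1 probe sets, and the ET3x2 pools lie below all others for Rab14 1367884_at (9.65 to 10.05).

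Ap1s1 encodes the small sigma subunit of the clathrin adaptor AP-1, which carries cargo between the trans-Golgi network and endosomes. Ap1s1 1371858_at had 10.83, 10.86, 10.93 and 10.63 in ET3x2, 10.44, 10.27, 10.28 and 10.53 in ET3x1, and 10.55, 10.70, 10.81 and 10.62 in S. Here ET3x1 was the low strain, with no pool above any pool of ET3x2 or S. Strains differed in log2 signal by 0.43 (SE 0.091, 1.35-fold) in ET3x2 against ET3x1, -0.29 (SE 0.091) in ET3x1 against S and 0.14 in ET3x2 against S. The one call, in ET3x2 against ET3x1, was kept in 13 of 21 alternatives. It was lost without any of the 6 pools B, E, G, I, J and K, without A, B and J together, and with quantile normalisation, with differences of 0.39 to 0.45.

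Ap1s1 1377769_at, on RAE230B, pointed the same way in each contrast, with more spread. Its pools had 10.51, 10.78, 10.34 and 9.74 in ET3x2, 9.93, 10.41, 9.18 and 10.01 in ET3x1, and 10.36, 10.22, 10.39 and 9.98 in S. The strains overlapped, and ET3x1 pool G was the lowest. ET3x2 exceeded ET3x1 by 0.46 (log2, SE 0.24), and ET3x1 differed from S by -0.36 (SE 0.24). The spread between pools was wider here than at 1371858_at in each strain.

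Among the Rab GTPases not chosen for a shift, Rab5a directs fusion at the early endosome, Rab7a acts at late endosomes and lysosomes, and Rab11a serves recycling endosomes. Rab5a 1388800_at had 9.01, 9.55, 9.30 and 9.34 in ET3x2, 9.36, 9.67, 8.98 and 9.24 in ET3x1, and 9.54, 9.46, 9.61 and 9.37 in S. The strains overlapped, with S pools in the upper part of the range. The log2 difference was -0.19 in ET3x1 against S (95% interval -0.47 to 0.10, limma adjusted p = 0.568) and -0.20 in ET3x2 against S (interval -0.49 to 0.09, adjusted p = 0.609). In ET3x2 against ET3x1 it was -0.01 (interval -0.30 to 0.28, adjusted p = 0.98).

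Rab5a 1387641_at was not tested, since its mean over the 12 pools lay under the filter level of 7.52. It had 7.39, 8.06, 7.14 and 7.11 in ET3x2, 7.01, 7.30, 6.86 and 7.04 in ET3x1, and 8.33, 8.19, 7.52 and 7.02 in S. The 3 highest pools were A, B and J, at 8.06 to 8.33 against 6.86 to 7.52 in the other 9, and these are the pools with the highest actin 5' minus 3' signal. For Rab5a 1388800_at the same 3 pools, at 9.46 to 9.55, lay within the range of the other 9 (8.98 to 9.67). The part of this control signal in the Rab5a values was not tested. Pools A, B and J were the 3 highest in 1 of the 22 member probe sets (4.55%) and the 3 lowest in 2 (9.09%, Rab14 1375687_at and Rab11a 1398814_at), against 5.77% and 4.28% of all tested probe sets. The 1 is Rab5a 1387641_at itself, and the 22 include untested probe sets, while the shares over all do not.

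**Figure D3:**
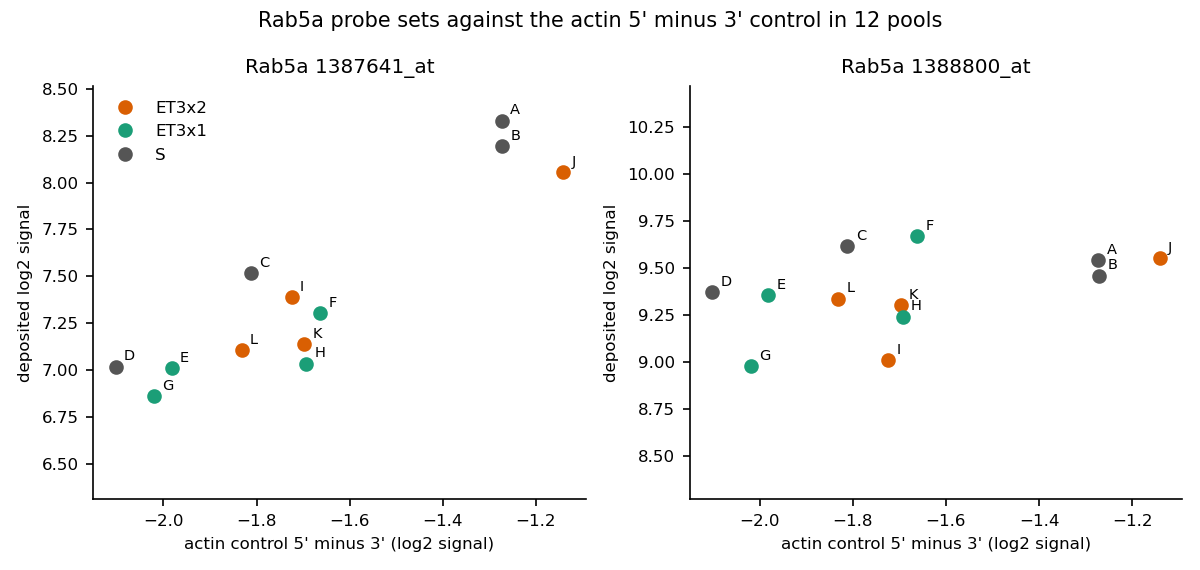
Deposited log2 signal of Rab5a 1387641_at (left) and 1388800_at (right) on the y axis, against the actin 5' minus 3' control of the same RAE230A array (x axis, log2 signal). Each point is 1 of 12 pools, labelled by its letter and coloured by strain. Pools J, A and B stand to the upper right for 1387641_at, at 8.06, 8.33 and 8.19, and do not stand apart in height for 1388800_at.

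Rab7a 1387797_at ranged from 12.02 to 12.38 in ET3x2, from 12.10 to 12.37 in ET3x1 and from 12.21 to 12.45 in S. Its log2 difference was -0.08 in ET3x1 against S (interval -0.28 to 0.12, limma adjusted p = 0.733), -0.05 in ET3x2 against S (-0.25 to 0.15, adjusted p = 0.873) and 0.03 in ET3x2 against ET3x1 (-0.17 to 0.23, adjusted p = 0.912). The second Rab7a probe set, 1398838_at, spread more widely, from 10.10 to 10.90 in ET3x2, from 9.94 to 10.80 in ET3x1 and from 10.19 to 10.82 in S. Its differences were -0.26 in ET3x1 against S (interval -0.68 to 0.17, limma adjusted p = 0.595), -0.08 in ET3x2 against S (-0.50 to 0.34, adjusted p = 0.912) and 0.17 in ET3x2 against ET3x1 (-0.25 to 0.60, adjusted p = 0.716). For Rab7a 1387797_at the intervals bound any difference within 0.28, and for 1398838_at they do so only within 0.68.

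Rab11a 1374069_at ranged from 8.94 to 9.33 in ET3x2, from 8.93 to 9.46 in ET3x1 and from 8.95 to 9.30 in S. The differences were 0.06 in both contrasts with S (intervals -0.21 to 0.32) and 0.00 in ET3x2 against ET3x1 (-0.27 to 0.27), with limma adjusted p of 0.874, 0.902 and 0.999. Rab11a 1398814_at lay between 11.78 and 11.88 in ET3x2, 11.82 and 12.08 in ET3x1, and 11.73 and 11.90 in S. It differed by 0.11 in ET3x1 against S (-0.05 to 0.27, limma adjusted p = 0.545), by 0.02 in ET3x2 against S (-0.15 to 0.18, adjusted p = 0.953) and by -0.09 in ET3x2 against ET3x1 (-0.26 to 0.07, adjusted p = 0.596). In every comparison the Rab11a pools overlapped.

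Vps35 is the core of retromer, the coat that retrieves receptors from endosomes, and Hgs, another FYVE protein, gathers ubiquitinated receptors for the ESCRT pathway. Vps35 1372806_at ranged from 11.02 to 11.13 in ET3x2, from 10.71 to 11.14 in ET3x1 and from 10.90 to 11.08 in S. The difference was -0.02 in ET3x1 against S (interval -0.21 to 0.17, limma adjusted p = 0.928), 0.08 in ET3x2 against S (-0.11 to 0.27, adjusted p = 0.784) and 0.10 in ET3x2 against ET3x1 (-0.09 to 0.29, adjusted p = 0.623). Hgs 1367840_at ranged from 9.99 to 10.34 in ET3x2, from 10.03 to 10.33 in ET3x1 and from 10.02 to 10.20 in S. It differed by 0.04 in ET3x1 against S (-0.16 to 0.24, limma adjusted p = 0.877), by 0.02 in ET3x2 against S (-0.18 to 0.22, adjusted p = 0.949) and by -0.02 in ET3x2 against ET3x1 (-0.22 to 0.18, adjusted p = 0.946). For Vps35 and Hgs the pools of all 3 strains overlapped.

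**Figure D4:**
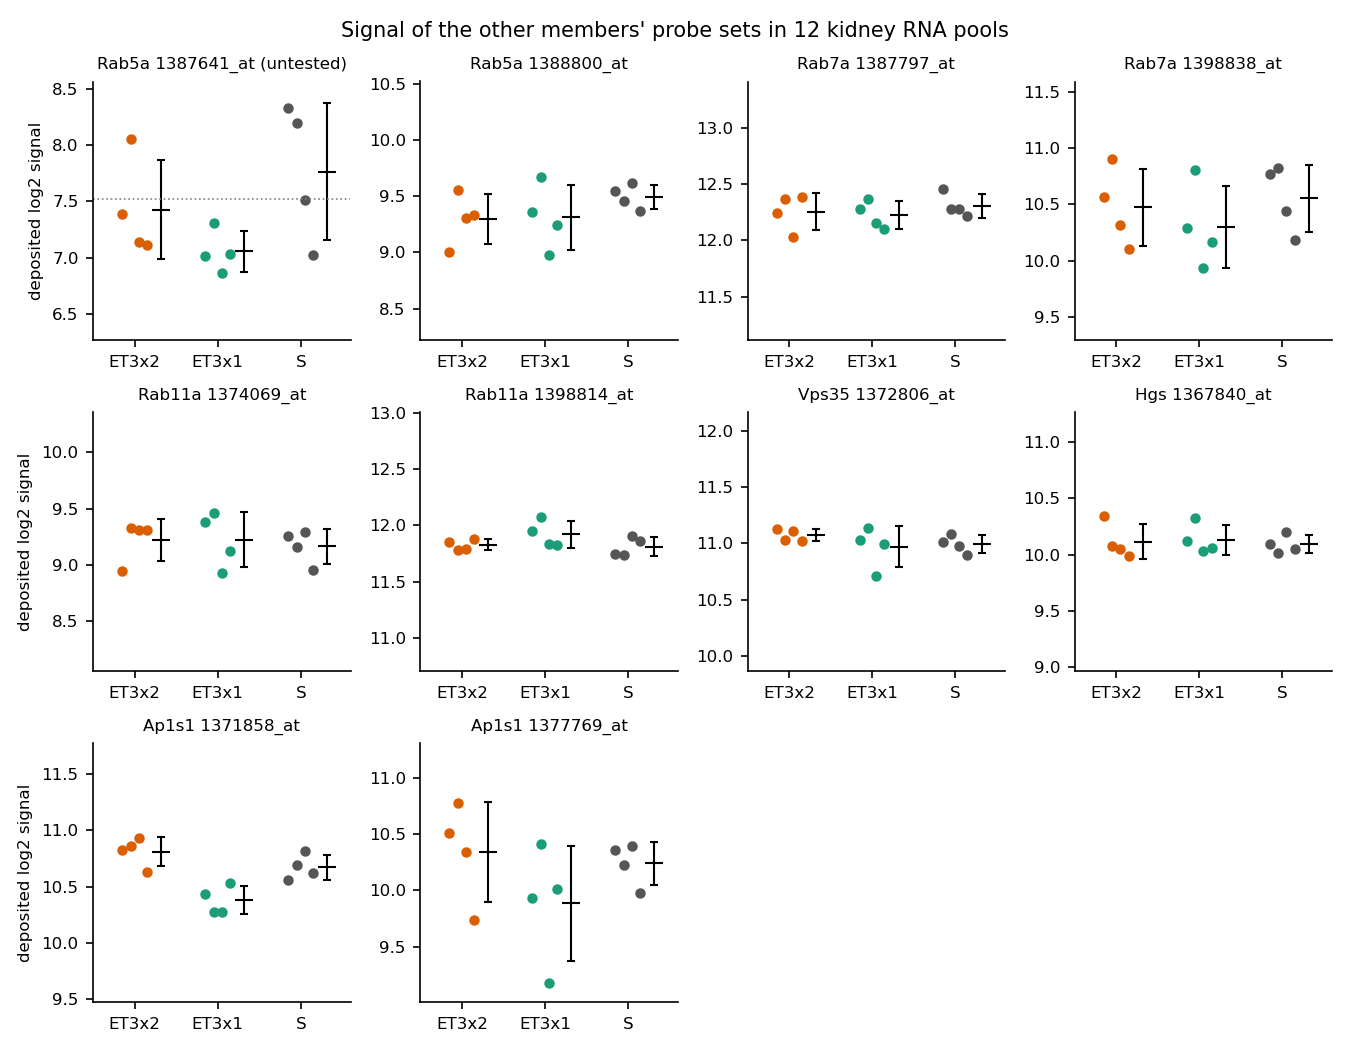
Deposited log2 signal (y axis, a separate range in each panel) of the 10 probe sets of Rab5a, Rab7a, Rab11a, Vps35, Hgs and Ap1s1 in the 4 pools of ET3x2, ET3x1 and S. Points are pools and the bar is the mean with SD. The strains overlap in all panels but that of Ap1s1 1371858_at, where the ET3x1 pools (10.27 to 10.53) lie below the others.

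Probe sets of one gene on the same array were also compared pool by pool, as the difference between them centred on its mean over the 12 pools. For Wdfy1 this difference was -0.36 ± 0.26 in ET3x2, 0.75 ± 0.41 in ET3x1 and -0.39 ± 0.36 in S (SD, n = 4 pools each). In Wdfy1 and Eea1 every ET3x1 pool lay above every pool of the other strains, and for Eea1 no size is given, since 1394985_at enters it. For Rab14 1367884_at minus 1375687_at it was -0.59 ± 0.61 in ET3x2, 0.06 ± 0.21 in ET3x1 and 0.53 ± 0.30 in S, with ET3x2 below S and no overlap. That pair is 1 of 3 among the tested Rab14 probe sets. For 1367884_at minus 1376796_at ET3x2 lay below ET3x1 without overlap (-0.96) and overlapped with S (-0.71), and for 1375687_at minus 1376796_at all strains overlapped. For Gapvd1 1381021_at minus 1398510_at it was -0.09 ± 0.15, 0.07 ± 0.08 and 0.02 ± 0.13 in ET3x2, ET3x1 and S, and the strains overlapped.

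The same pool-by-pool difference was tested for Rab5a, Rab7a and Rab11a, by 9 exact two-sided permutation tests over pools, of which 0 passed after Benjamini-Hochberg adjustment and 0 had an unadjusted p under 0.05. With 9 exact permutation tests, 1 alone at the smallest possible p of 0.0286 adjusts to 0.257 and could not pass. Of the Rab5a pair, 1387641_at lay under the filter. The smallest p was 0.1429 (adjusted 0.643, exact permutation test), for Rab5a in ET3x1 against S and in ET3x2 against ET3x1, where 4 against 4 pools allow no p below 0.0286. For Rab5a the difference between both probe sets was 0.08 ± 0.37 in ET3x2, -0.30 ± 0.12 in ET3x1 and 0.22 ± 0.58 in S (SD, n = 4 pools each). The difference in ET3x1 against S was -0.52 on this measure, and -0.03 without pools A, B and J, which leaves only pools C and D in S. Without pool D the exact permutation p for ET3x1 against S was 0.0286, and 0.257 after adjustment.

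**Figure D5:**
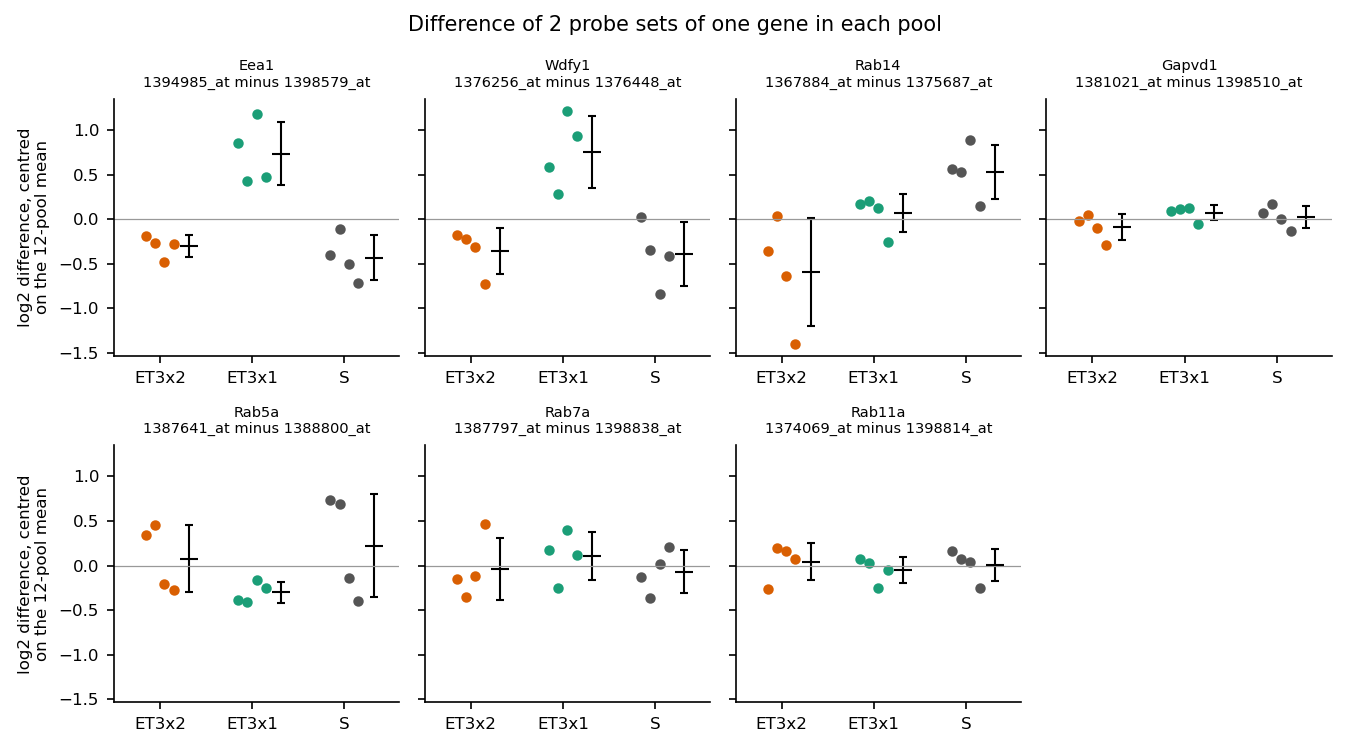
Difference between 2 probe sets of one gene in each pool (y axis, log2, centred on the mean of the 12 pools), in ET3x2, ET3x1 and S. Points are pools and the bar is the mean with SD. The ET3x1 pools lie above all others for Eea1 and for Wdfy1 (mean 0.75), the ET3x2 pools lie below the S pools for the Rab14 pair drawn, 1367884_at minus 1375687_at, and the strains overlap for Gapvd1, Rab5a, Rab7a and Rab11a.

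The 1957 genes with several tested probe sets on an array were counted for each array apart. A gene with 1 called probe set seldom had all of its tested probe sets on that array called. In ET3x1 against S 42 genes had at least 1 called and 1 had all called, and in ET3x2 against ET3x1 the numbers were 126 and 6. In ET3x2 against S they were 20 and 0. A called probe set lay beside one of opposite sign in 16, 45 and 6 of these genes, in the same order of contrasts. Wdfy1 and Rab14 stood at the 99.4th and 97.5th percentile of the gap in ET3x1 against S, and Rab11a, Gapvd1 and Rab7a at the 18.7th, 16.5th and 56.5th. The Gapvd1 rank compares 1381021_at and 1398510_at on RAE230B. It leaves out 1375878_at on RAE230A, which differed by -0.09 where 1381021_at differed by 0.33. Since the genes were chosen with their shifts known, these ranks are a description.

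The genes whose profile over the 12 pools lay closest to each chosen probe set were found by the root mean square (RMS) difference of mean-centred log2 signal, on the same array. For Eea1 1394985_at they were Aff4, Luc7l3 and Herc1, each with an RMS difference of 0.18 against a median of 0.64 over 5777 probe sets, with its ET3x2 and S pools under the filter level. Aff4 is a scaffold of a transcription elongation complex, Luc7l3 a splicing factor and Herc1 a very large ubiquitin ligase. For Wdfy1 1376256_at they were Zfp91, Pja2 and Kdm5a (0.22, 0.25 and 0.28, median 0.71 over 9316). Pja2 is a ubiquitin ligase and Kdm5a a histone demethylase. For Gapvd1 1381021_at they were Ddx27, Ing2 and Atp2b1 (0.091, 0.096 and 0.096, median 0.24 over 5777), and for Rab14 1367884_at Itga1, Bmpr2 and Phf20 (each 0.18, median 0.54 over 9315). Ddx27 is an RNA helicase, Ing2 a chromatin reader, Atp2b1 a calcium pump, Itga1 a collagen-binding integrin chain and Bmpr2 a receptor for bone morphogenetic proteins. None of the 12 is itself a member of the endosome lists used here. These lists hold 211 of the 11218 named genes tested, so that nothing is read from this.

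The wider endosome machinery was followed in 8 lists that leave out the members: Rab GTPases, Rab regulators and effectors, early endosome and PI3P, ESCRT, retromer and recycling, late endosome with its HOPS tether, adaptors and clathrin, and proximal tubule uptake. Of 235 listed genes, 211 were tested with 313 probe sets. In ET3x1 against S 1 passed, higher, which is 0.319% against 0.44% of all probe sets. In ET3x2 against S 0 passed with limma (0.344% of all). In ET3x2 against ET3x1 4 were lower and 1 was higher, 1.6% against 1.48% of all. The median log2 difference of the 313 was -0.012, 0.024 and 0.043 in the 3 contrasts in this order, against -0.0047, 0.025 and 0.032 over all probe sets. An unadjusted p under 0.05 was found for 49, 34 and 47 of the 313 (15.7%, 10.9% and 15.0%), against 11.8%, 10.9% and 13.1% of all probe sets.

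By list, 0 of 65 probe sets of other Rab GTPases, 0 of 40 of Rab regulators and effectors, 0 of 47 of early endosome and PI3P genes, 0 of 61 of adaptors and clathrin and 0 of 11 of proximal tubule uptake passed in any contrast with limma. In these 5 lists the counts with an unadjusted p under 0.05 in ET3x2 against ET3x1 were 11, 7, 3, 8 and 2, or 16.9%, 17.5%, 6.38%, 13.1% and 18.2%, against 13.1% of all probe sets. In ET3x2 against ET3x1 the called probe sets belong to retromer and recycling (3 of 34, 8.82%), ESCRT (1 of 34, 2.94%) and late endosome (1 of 21, 4.76%). Over all probe sets 1.48% passed. These 3 lists had 4, 7 and 5 probe sets with an unadjusted p under 0.05 (11.8%, 20.6% and 23.8%, against 13.1% of all). In ET3x1 against S the 1 called probe set is of the late endosome list (1 of 21, 4.76%, against 0.44% of all). No list was tested as a set. The proximal tubule list holds the uptake receptors megalin (Lrp2) and cubilin (Cubn).

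Lamp2, a major membrane protein of lysosomes, was the one called in both contrasts with ET3x1. Lamp2 1370010_at had 12.33, 12.24, 12.31 and 12.53 in ET3x2, 12.76, 12.72, 12.78 and 12.80 in ET3x1, and 12.48, 12.20, 12.30 and 12.21 in S, with every ET3x1 pool above the rest. It was higher by 0.47 in ET3x1 against S (SE 0.081, limma adjusted p = 0.0325) and lower in ET3x2 against ET3x1, at -0.41 (SE 0.081, adjusted p = 0.0288). The first call was lost without any of pools B, C, D, E, F, G, H, I and K (0.43 to 0.48, adjusted p up to 0.129), and the second without any of E, G, H, I, J and K (-0.41 to -0.37, adjusted p up to 0.123). A second Lamp2 probe set, 1383080_at, differed by 0.20 and -0.12 in the same contrasts and was not called.

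Snx27, a sorting nexin that links cargo to retromer, had 8.03, 7.98, 7.71 and 8.04 in ET3x2, 9.20, 8.80, 9.48 and 8.41 in ET3x1, and 8.61, 8.28, 8.97 and 8.61 in S at probe set 1379804_at. All ET3x2 pools lay below all others. The log2 difference in ET3x2 against ET3x1 was -1.04 (SE 0.20, limma adjusted p = 0.0133), and -0.96 without pool E or K, with an adjusted p of 0.0611 to 0.0635. 3 further Snx27 probe sets differed by -0.23, -0.07 and -0.06 and were not called. Washc4, of the WASH complex that builds actin on endosomes, was lower in ET3x2 than in ET3x1 at 1392838_at (log2 difference -0.60, SE 0.12, limma adjusted p = 0.0176) and not called at its other probe set (-0.14). Its pools had 9.41, 9.84, 9.36 and 9.56 in ET3x2 and 10.14, 10.03, 10.32 and 10.08 in ET3x1, against 10.11, 9.84, 9.67 and 9.65 in S. The Washc4 call was lost without pool E, G, I or K (-0.60 to -0.54, adjusted p up to 0.0848).

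Chmp5, an ESCRT-III subunit, had 11.89, 11.78, 11.75 and 11.94 in ET3x2 and 12.25, 12.34, 12.35 and 12.15 in ET3x1, against 11.88, 11.79, 12.17 and 12.02 in S on RAE230A. The log2 difference in ET3x2 against ET3x1 was -0.43 (SE 0.089, limma adjusted p = 0.0349), a call lost without pool E, G, I, J or K (-0.45 to -0.40, adjusted p up to 0.158). The same Chmp5 probe set, 1367512_at, is also on RAE230B, where the difference was -0.32 and the adjusted p 0.106. Ehd1, an ATPase of recycling endosomes, was the one higher gene, with 10.88, 10.71, 10.74 and 10.70 in ET3x2, 10.42, 10.55, 10.20 and 10.19 in ET3x1, and 10.49, 10.43, 10.48 and 10.54 in S. It was higher by 0.42 in ET3x2 against ET3x1 (SE 0.088, limma adjusted p = 0.0362), with 0.30 at its second probe set, not called. This call was lost without pool E, G, H, I, J or K, without A, B and J together, and with only the 2 strains fitted (0.37 to 0.45, adjusted p up to 0.151).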

How the data were processed

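The deposited tables of the authors hold 1 value per probe set and pool for each array, taken as log2 signal from their range (4.97 to 15.24 on RAE230A, 4.1 to 14.28 on RAE230B). Per the labels' protocols, oligo(dT)-primed cDNA was made from pooled total RNA and transcribed into biotinylated cRNA. Summarisation, background correction and normalisation are not given in the sources used here, and no further scaling was applied. The number of arrays limits the precision.

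Symbols came from the platform table and the RefSeq table of GRCr8 (12748 and 7524 probe sets matched by gene ID). The 57 control probe sets per array and probe sets with a mean under the 30th percentile were left out, leaving 11106 and 10693. limma 3.58.1 in R 4.3.3 (lmFit, eBayes with a trended prior) was fitted to the 12 pools of each array with 3 groups and no covariate. P-values are two-sided and Benjamini-Hochberg adjusted within array and contrast, with 0.05 as threshold. Each pool holds other rats and was read once on each array. The spread between pools thus holds biological variation, averaged within pools, and technical variation, which cannot be told apart. The 3 strains share 1 estimate of the spread per probe set, though S pools hold 2 rats and congenic pools 3. On simulated data for ET3x1 against S, differences of 0.5 were recovered in 74% (RAE230A) and 79% (RAE230B) of shifted probe sets, and of 1.0 in 97% and 99%. There were 11 and 14 false calls. Normal noise was drawn independently for each probe set, and more probe sets were shifted than were called in the real contrast. These shares thus check the fit and cannot be taken over to the real pools.

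The members, lists and tests were chosen with earlier results of these data known. Named are all member probe sets, up to 10 called list genes per contrast, and the 3 genes closest in profile to the most variable probe set of Eea1, Wdfy1, Gapvd1 and Rab14. Marker genes are given only as lists. Alternatives were other filters and scalings, array weights, an untrended prior, fits of 2 strains, leaving out pools, and, added after seeing the data, the actin 5' minus 3' signal as a covariate. Figures used Python 3.11.15 and matplotlib 3.10.9.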

Additional observations from a re-analysis of the deposited data

Results flagged for a closer look

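In 4 of 66 groups of 4 pools (22 member probe sets in 3 strains), 1 pool stood far from the other 3 by Dixon's criterion, which chance alone meets in about 1 of 20 groups. For Wdfy1 1376448_at, ET3x2 pool L had 9.23, and the nearest of the other ET3x2 pools had 8.77. For Rab14 1367884_at, S pool C had 11.08, with 10.45 as the nearest S value. For Rab14 1376796_at, ET3x1 pool F had 9.53, with the nearest at 9.08. For Rab11a 1374069_at, ET3x2 pool I had 8.94, below the nearest at 9.31. Each flag concerns a different pool, and none of the 4 falls on Eea1 or Gapvd1.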

How the results depend on the processing

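No paired analysis was possible because the strains share no pool letters. Under the alternatives no called member difference changed sign. Counting each member difference once under each alternative, 1031 kept sign and side of the threshold under the alternatives named at the start, 38 lost the call, 3 gained one and 65 uncalled ones changed sign, and with the added covariate 50 kept and 7 changed sign. Eea1 1394985_at was not tested under the filter at the 50th percentile.

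In ET3x1 against S, over all probe sets 164 were called with array weights, 51 with only the 2 strains, 215 with the actin covariate, and 41 to 118 without 1 pool (57 without C, 41 without E). The member count was 1 with only the 2 strains and 1 to 2 without 1 pool (1 without C, D, E, F, H, K or L). The list count was 2 without a filter, 3 without pools A, B and J, 3 with the covariate, and 0 to 1 without 1 pool.

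In ET3x2 against S, 419 were called with array weights (136 higher, 283 lower), 17 without A, B and J, 42 with only the 2 strains, 432 with the covariate (141 higher, 291 lower), and 19 to 167 without 1 pool (19 without A, I or K, 21 without C, 44 without E, 36 without L, 140 without J, 167 without D). Members counted 1 with array weights, Rab14 1367884_at, lower. The lists counted 3 with weights, 3 with the covariate, and 0 to 3 without 1 pool (1 without D, 3 without J).

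In ET3x2 against ET3x1, 1658 were called with array weights (714 higher, 944 lower), 502 with the covariate, and 133 to 488 without 1 pool (133 without K, 146 without E, 197 without G, 204 without I, and without F 488, 180 higher and 308 lower). Members counted 3 without A, B and J and 3 to 5 without 1 pool (3 without B, E, G, I, J or K). The lists counted 31 with weights (18 higher, 13 lower), 8 with the covariate, and 0 to 10 without 1 pool (0 without E or K, 1 without I, 2 without G or J, 3 without H, 8 without L, 10 without F). The cause of these changes was not tested. The comparisons between probe sets of Rab5a, Rab7a and Rab11a gave 0 calls under each alternative run, which says nothing on stability, since the smallest possible p of 0.0286 adjusts to 0.257 when 1 of the 9 tests reaches it. Signal near background limits Eea1 1394985_at and the 3 probe sets under the filter, and 4 pools of 2 or 3 rats per strain limit all differences.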
